A study of Arabidopsis thaliana with 8 samples.

Results

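SULTR1;2 (AT1G78000), BZIP9 (AT5G24800), AT5G54660 and AT1G65810 are 4 Arabidopsis thaliana genes whose signal was higher in mature lateral nectaries (MLN) than in mature median nectaries (MMN). They are 4 of the 14070 loci that had at least 1 ATH1 probe set assigned to a single locus, and each has 1 such probe set. The genes were picked from signals of these same arrays, for their lateral bias at maturity and for their course between floral stages 11 to 12 and 14 to 15. Their own values and differences are therefore given as a description, with no test.

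The study pooled hand-dissected floral nectaries of the Columbia-0 ecotype, 250 to 300 per pool according to the sample records, from plants 30 to 35 days old grown under 16 h of light and 8 h of dark. Flowers were collected 4 to 8 h after dawn, and each pool came from different plants. MLN (3 pools) came from stage 14 to 15 flowers and secrete nectar, MMN (2 pools) came from flowers of the same stages and are described as non-secretory, and immature lateral nectaries (ILN, 3 pools) came from stage 11 to 12 flowers and are pre-secretory. No genotype or treatment set the groups apart, so they differ in position, in stage, or in both. An immature median nectary was not analysed here, so for MMN against ILN position and stage cannot be told apart. The RNA taken into labelling was 500 ng for both lateral groups and 250 ng for MMN, and this amount cannot be told apart from nectary position either.

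An Arabidopsis flower carries a pair of large lateral nectaries at the bases of the short stamens, which release most of the nectar, and smaller median nectaries that release little or none. The members with a known role act in unlike processes. SULTR1;2, also known as SEL1 for the selenate resistance of its mutants, encodes a plasma membrane transporter that takes up sulfate with high affinity and is best known from roots, where sulfur shortage induces it. BZIP9 encodes a group C basic leucine zipper transcription factor. Factors of this group pair with S1 bZIP factors, and these dimers are known for regulating amino acid and carbohydrate metabolism when energy is low. AT5G54660 is annotated by the study as heat shock protein-related, and AT1G65810 carries no functional annotation in the sources used here.

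SULTR1;2 had signals of 388, 512 and 433 in MLN, 131 and 127 in MMN, and 71.3, 53 and 38.3 in ILN, on the linear scale on which every array has a median of 100. The 3 nectary types did not overlap: every MLN array lay above every MMN array, and both MMN arrays lay above every ILN array. Its mean was 444 ± 62.9 in MLN, 129 ± 2.85 in MMN and 54.2 ± 16.5 in ILN (SD, n = 3, 2 and 3). The log2 difference was 1.78 (standard error 0.27) for MLN minus MMN, a 3.43-fold higher signal in MLN. It was 3.07 (standard error 0.24) for MLN minus ILN, or 8.41-fold, and 1.29 (standard error 0.27) for MMN minus ILN, or 2.45-fold. SULTR1;2 was the member with the widest gap between stages and with the largest difference between the median and the immature lateral nectaries.

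BZIP9 gave signals of 1422, 2667 and 2064 in MLN, 428 and 553 in MMN, and 463, 719 and 551 in ILN. Every MLN array was above every array of the other types, while the MMN and ILN arrays overlapped. Its mean was 2051 ± 623 in MLN, 490.3 ± 88.4 in MMN and 577 ± 130 in ILN (SD, n = 3, 2 and 3). The log2 difference was 2.03 (standard error 0.28) for MLN minus MMN and 1.81 (standard error 0.25) for MLN minus ILN, which are 4.08-fold and 3.5-fold. For MMN minus ILN it was -0.22 (standard error 0.28), so the order of these types was not resolved. Its probe set carries the suffix that marks probes able to match several transcripts, and its annotated span slightly overlaps the adjoining gene AT5G24810. The part of other transcripts in its signal was not tested.

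AT5G54660 had signals of 499, 466 and 363 in MLN, 86.9 and 97.3 in MMN, and 56.9, 81.2 and 54.8 in ILN. All MLN arrays were far above the rest, and both MMN arrays were above every ILN array by a small margin. The mean was 443 ± 71.2 in MLN, 92.1 ± 7.37 in MMN and 64.3 ± 14.7 in ILN (SD, n = 3, 2 and 3). The log2 difference was 2.25 (standard error 0.25) for MLN minus MMN, or 4.77-fold, and 2.79 (standard error 0.22) for MLN minus ILN, or 6.93-fold. Between MMN and ILN the log2 difference was 0.54 (standard error 0.25), or 1.45-fold.

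AT1G65810 had signals of 362, 176 and 274 in MLN, 53.5 and 62.9 in MMN, and 49.6, 34.6 and 41 in ILN. The MLN arrays again lay above all others, and both MMN arrays above all ILN arrays. Its mean was 271 ± 92.7 in MLN, 58.2 ± 6.65 in MMN and 41.7 ± 7.53 in ILN (SD, n = 3, 2 and 3). The log2 difference was 2.16 (standard error 0.3) for MLN minus MMN, or 4.48-fold, 2.65 (standard error 0.27) for MLN minus ILN, or 6.29-fold, and 0.49 (standard error 0.3) for MMN minus ILN, or 1.4-fold. Outside MLN this gene and AT5G54660 stayed below the array median of 100 on every array, as did SULTR1;2 on every ILN array. At such levels any background left makes up more of the signal and folds are less certain.

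**Figure D1:**
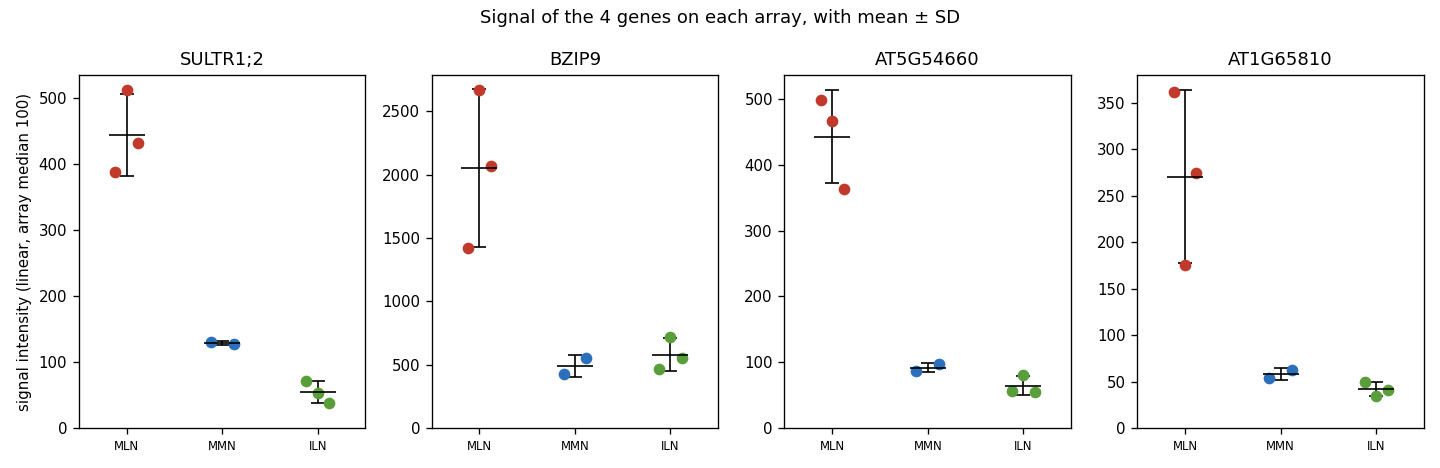
Signal intensity (linear, array median 100) of the 4 genes in mature lateral (MLN), mature median (MMN) and immature lateral (ILN) nectaries. Coloured points are single arrays and black marks are the mean ± SD (n = 3, 2 and 3), and in every panel the 3 MLN points lie above all MMN and ILN points, with axes that start at 0 but differ between panels.

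The bias toward lateral nectaries was measured at maturity only. No immature median nectary was analysed here, so a bias at stage 11 to 12 was not tested. For SULTR1;2, AT5G54660 and AT1G65810 every ILN array was below both MMN arrays, and for BZIP9 these types overlapped, so in none of the 4 genes did all ILN arrays lie above the MMN arrays. In order of level, MLN came first for all 4. MMN and ILN followed in that order for SULTR1;2, and also, with smaller gaps, for AT5G54660 and AT1G65810. As a fold, the gap between the nearest MMN and ILN arrays was narrower than the spread among ILN arrays in all 3. The course between stages also differed in size, being widest for SULTR1;2 and narrowest for BZIP9 in MLN minus ILN, while MLN minus MMN was largest for AT5G54660, followed by AT1G65810, BZIP9 and SULTR1;2. That order was not stable, since with 32 added before log2 BZIP9 came first at 1.96, followed by AT5G54660 at 1.92, AT1G65810 at 1.70 and SULTR1;2 at 1.56. Differences among members were not tested, and neighbours in the first of these orders differed by less than the standard errors of their values.

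Replicate arrays varied unequally. Within MLN the highest signal was 1.32 times the lowest for SULTR1;2, 1.88 times for BZIP9, 1.38 times for AT5G54660 and 2.05 times for AT1G65810. The lowest MLN array nevertheless exceeded the highest MMN array 2.97-fold for SULTR1;2, 2.57-fold for BZIP9, 3.73-fold for AT5G54660 and 2.81-fold for AT1G65810. Over the highest ILN array the lowest MLN array was 5.44, 1.98, 4.47 and 3.56 times as high for the genes in that order. The members did not share one extreme pool: MLN 2 had the highest MLN signal for SULTR1;2 and BZIP9 and the lowest for AT1G65810, whereas MLN 1 had the highest for AT5G54660 and AT1G65810. Across the 8 arrays, the log2 signals of member pairs correlated at r = 0.835 (BZIP9 and AT1G65810) to 0.951 (AT5G54660 and AT1G65810). These coefficients describe 3 groups of arrays that the rule itself had set apart.

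Leaving out any 1 array kept the sign of each difference for every member. The MLN minus MMN difference then ranged from 1.67 to 1.87 for SULTR1;2, from 1.82 to 2.27 for BZIP9, from 2.16 to 2.39 for AT5G54660 and from 1.92 to 2.44 for AT1G65810. MLN minus ILN ranged from 2.84 to 3.29 for SULTR1;2, from 1.59 to 2.05 for BZIP9, from 2.69 to 2.97 for AT5G54660 and from 2.41 to 2.93 for AT1G65810. MMN minus ILN reached as near 0 as -0.039 for BZIP9, while it stayed between 1.07 and 1.51 for SULTR1;2.

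**Figure D2:**
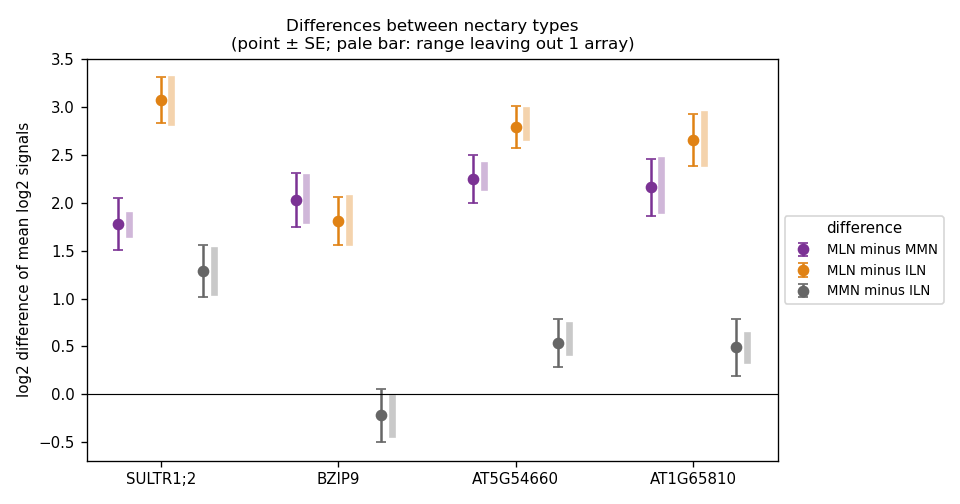
Log2 difference of the mean log2 signals of each gene for MLN minus MMN, MLN minus ILN and MMN minus ILN. Points carry ± 1 standard error and pale bars span the values obtained when 1 array is left out, and both differences with MLN lie above 1.5 for all genes whereas MMN minus ILN lies between -0.22 for BZIP9 and 1.29 for SULTR1;2.

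Among all 22746 probe sets, MLN minus MMN was a comparison with few changes. An adjusted p under 0.05 in limma was reached by 0.158% of probe sets in the direction of MLN (36) and by 0.572% in the direction of MMN (130). The corresponding shares were 12.0% higher and 11.5% lower for MLN minus ILN, and 9.97% higher and 8.86% lower for MMN minus ILN. A gap with every MLN array above both MMN arrays, as all 4 members had, occurred in 14.1% of probe sets, every MLN array above every ILN array in 25.8%, and both MMN arrays above every ILN array, as 3 of the 4 had, in 31.3%. Since the members were taken from these contrasts, nothing is read from their counts. The median log2 difference of all probe sets was 0.032 for MLN minus MMN, 0.17 for MLN minus ILN and 0.11 for MMN minus ILN, and after a new quantile normalization it was 0.025, 0.048 and 0.0088.

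By size of the MLN minus MMN difference, AT5G54660 ranked 3, AT1G65810 ranked 5, BZIP9 ranked 6 and SULTR1;2 ranked 14 among all probe sets. Those places were lower in MLN minus ILN, at 117, 141, 352 and 81. Of the 14217 probe sets with 1 locus, 29 were called higher in MLN than in MMN. The other genes with large differences are given here for their levels, and since the members were chosen for this difference, their own places among the calls carry no information. MYB7, of a MYB subgroup known for repressing phenylpropanoid genes, averaged 1082 in MLN, 202 in MMN and 184 in ILN, a log2 difference of 2.40 for MLN minus MMN. JMT, which makes methyl jasmonate, averaged 15279 in MLN, 3348 in MMN and 3755 in ILN, a log2 difference of 2.31 for MLN minus MMN. AT3G14780, with 290 in MLN, 71 in MMN and 81 in ILN, had the flat MMN and ILN levels seen in BZIP9. AT3G57950, with 358 in MLN, 91 in MMN and 24.1 in ILN, had the 3 separated levels seen in SULTR1;2. The calls of these 4 genes were lost without MLN 1 or MMN 1 for JMT, without MMN 2 for MYB7, and without MMN 1 or MMN 2 for AT3G14780 and AT3G57950. AT5G42720 averaged 577 in MLN, 158 in MMN and 293 in ILN. AT3G49930 averaged 996 in MLN, 278 in MMN and 1014 in ILN, so that its ILN level matched its MLN level (log2 difference -0.028 for MLN minus ILN). The AT5G42720 and AT3G49930 calls in MLN against MMN were lost on leaving out 4 and 6 of the 8 arrays in turn.

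Genes of sulfate transport and assimilation were set beside SULTR1;2 to ask whether they had the same order of nectary types. The transporter list held 12 genes, of which 2 besides SULTR1;2 had a probe set of their own. The close relatives SULTR1;1 and SULTR1;3 and the adjoining gene SULTR2;2 (AST56) had none. A probe set of its own means one that the annotation used here assigned to that locus alone. Genes without one may still be on the array. SULTR3;1, a group 3 member of the family, had signals of 1123, 516 and 940 in MLN, 1651 and 1687 in MMN, and 269, 225 and 419 in ILN. Its MLN arrays lay below both MMN arrays, the opposite of SULTR1;2, but the log2 difference of -1.03 (standard error 0.34) did not pass the test (limma adjusted p = 0.346). Against ILN it rose in both mature types, by 1.47 (standard error 0.3, limma adjusted p = 0.00465) in MLN and by 2.51 (standard error 0.34, limma adjusted p = 4.79e-04) in MMN. SULTR4;1, which releases sulfate from the vacuole, averaged 194 in MLN, 197 in MMN and 147 in ILN and passed no test. The list median was -0.53 for MLN minus MMN, 0.94 for MLN minus ILN and 1.47 for MMN minus ILN.

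The assimilation list covers the enzymes that carry sulfate to cysteine and glutathione, and 5 of its 22 genes were measured. In MLN against MMN none of the 5 passed the test, and 5 of 5 differences were negative with a median of -0.63. In MLN against ILN 3 of the 5 fell and none rose, with a median of -0.66, beside 11.5% lower and 12.0% higher among all probe sets. GSH2, glutathione synthetase, averaged 478 ± 201 in MLN and 968 ± 6.95 in ILN (SD, n = 3 each), a log2 difference of -1.10 (limma adjusted p = 0.0095). OASA1, an O-acetylserine(thiol)lyase that forms cysteine, averaged 1023 ± 418 in MLN and 1665 ± 245 in ILN (SD, n = 3 each; -0.77, limma adjusted p = 0.0485). APS3, an ATP sulfurylase that activates sulfate, averaged 182 ± 11.8 in MLN and 274 ± 29.7 in ILN (SD, n = 3 each; -0.58, limma adjusted p = 0.0388). The OASA1 and APS3 calls sat near the threshold. That of OASA1 was lost when any array but MLN 3 and ILN 1 was left out (limma adjusted p = 0.0725 to 0.172), and that of APS3 without any array but ILN 1 (limma adjusted p = 0.054 to 0.141). None of the 5 passed in MMN against ILN. Over the same stages the uptake gene SULTR1;2, which was picked for its course, was 8.41-fold higher in MLN, a difference of the opposite sign. A relation between uptake and assimilation was not tested.

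Of 10 genes known to respond to sulfur shortage, 2 were examined, and BGLU28 had the order of types of SULTR1;2. SDI2 (AT1G04770) also had a probe set of its own but was left out, since its name was not matched. BGLU28, a beta-glucosidase gene strongly induced by sulfur shortage, had signals of 913, 324 and 578 in MLN, 78 and 177 in MMN, and 51.5, 27.8 and 25.4 in ILN. Its MLN arrays lay above both MMN arrays and these above all ILN arrays. The log2 difference of 2.24 (standard error 0.47) for MLN minus MMN missed the threshold (limma adjusted p = 0.0619), those of 4.07 (standard error 0.42) for MLN minus ILN and 1.82 (standard error 0.47) for MMN minus ILN passed it (limma adjusted p = 6.91e-05 and 0.0182), the last not without ILN 2, ILN 3 or MMN 2 (limma adjusted p = 0.0565 to 0.217). The MLN minus MMN difference did pass under 5 alternatives, namely the replicate block (limma adjusted p = 0.0499), the signal minimum of 100 (0.0489), only the 2 groups compared (0.0371), array weights (0.0077) and without ILN 1 (0.0165). The gamma-glutamyl cyclotransferase gene GGCT2;1 (AT5G26220), which breaks down glutathione, averaged 265 in MLN, 598 in MMN and 151 in ILN. It rose in MMN against ILN by 2.04 (limma adjusted p = 0.0082, and 0.109 once MMN 2 was left out), while -1.23 for MLN minus MMN and 0.82 for MLN minus ILN did not pass. The list median was 0.51 for MLN minus MMN, 2.45 for MLN minus ILN and 1.93 for MMN minus ILN.

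For BZIP9, the list of group C and S1 bZIP factors held 9 genes, and 3 others were measured. In none of them did all MLN arrays lie above the MMN arrays. BZO2H3, or BZIP63, a group C factor like BZIP9, averaged 462 ± 212 in MLN, 555 ± 66 in MMN and 835 ± 87.8 in ILN (SD, n = 3, 2 and 3). It fell in MLN against ILN by 0.94 on the log2 scale (limma adjusted p = 0.0277), where BZIP9 was 3.5-fold higher. The group C genes BZIP10 and BZIP25 had no probe set of their own. Of the S1 factors, which form dimers with group C factors, BZIP53 averaged 1697 in MLN, 2144 in MMN and 1318 in ILN and rose in MMN against ILN by 0.71 (limma adjusted p = 0.0377). bZIP44 averaged 1540.4 in MLN, 1406 in MMN and 1068 in ILN and passed no test. None of the 3 was called in MLN against MMN, and their median there was -0.33. Of the low-energy genes on a list of 6, only DIN10, a raffinose synthase family gene induced in darkness, was measured. It averaged 1007 in MLN, 805 in MMN and 1860.3 in ILN, and fell against ILN by 0.92 in MLN and by 1.22 in MMN (limma adjusted p = 0.0379 and 0.0202). The BZO2H3 call was lost without MLN 1, MLN 2, ILN 2 or ILN 3 (limma adjusted p = 0.0512 to 0.102), and that of BZIP53 without MLN 1, ILN 3, MMN 1 or MMN 2 (limma adjusted p = 0.0573 to 0.291). The DIN10 call was lost in MLN without MLN 1, MLN 2, ILN 1 or ILN 2 (limma adjusted p = 0.072 to 0.133) and in MMN without ILN 2 or MMN 1 (limma adjusted p = 0.0574 and 0.213).

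Heat shock genes were set beside AT5G54660. Of 19 small heat shock protein genes listed, 12, AT5G54660 among them, had no matching name in the reference table. Most of these 12 had a probe set of their own. Apart from AT5G54660 they were left out for their names alone and not examined. A further 6 had no probe set of their own, which left ATHSP22.0. It averaged 74.2 in MLN, 103 in MMN and 58.9 in ILN, with every MLN array below both MMN arrays, and rose in MMN against ILN by 0.81 (limma adjusted p = 0.017), though not without ILN 2, MMN 1 or MMN 2 (limma adjusted p = 0.0554 to 0.134). Its -0.47 for MLN minus MMN did not pass (limma adjusted p = 0.618). Among 4 measured heat stress factors and chaperones of 8 listed, none was called in MLN against MMN. HSP70, a stress-induced chaperone, had signals of 165, 223 and 265 in MLN, 117 and 257 in MMN, and 27.2, 32.5 and 34.5 in ILN. It rose against ILN by 2.77 (standard error 0.29) in MLN and by 2.47 (standard error 0.33) in MMN (limma adjusted p = 8.56e-05 and 4.61e-04), and its mature types overlapped. HSF4, or HSFB1, a class B heat shock factor, averaged 358 ± 190.3 in MLN and 159 ± 24.5 in ILN (SD, n = 3 each) and rose by 1.06 (limma adjusted p = 0.027), with MLN 3 far above the other MLN arrays at 578. This call was lost without ILN 3 (limma adjusted p = 0.0901). HSF1 (HSFA1A) and the chaperone-type gene AT5G48570 (ROF2) passed no test.

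For AT1G65810, a list of 15 loci held the gene itself and possible relatives. The reference table names MAA3 and LBA1 among them and only repeats the locus for the others, which are therefore described by locus. The listed relative AT1G65780 had no probe set of its own. Of the 8 others measured, none was called in MLN against MMN, where their median was 0.092. AT5G35970 averaged 1585 in MLN, 2191 in MMN and 309 in ILN, and rose against ILN by 2.39 in MLN and by 2.87 in MMN (limma adjusted p = 4.35e-05 and 3.4e-05). AT5G52090 rose by 0.92 and MAA3 fell by 0.73 in MLN against ILN (limma adjusted p = 0.0162 and 0.0335), and the other 5 passed no test in any comparison. The AT5G52090 probe set carries the same suffix as that of BZIP9, and the part of other transcripts in its signal was not tested. The AT5G52090 call was lost without MLN 2, ILN 2 or ILN 3 (limma adjusted p = 0.0505 to 0.0621) and that of MAA3 without any array but MLN 3 and ILN 1 (limma adjusted p = 0.0539 to 0.126).

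Over these 8 lists, 26 measured genes besides the members gave 0 calls in MLN against MMN in limma, with 8 at an unadjusted p under 0.05 and 1, BGLU28, called under the replicate block, and 0 in the methods' t-test after Benjamini-Hochberg adjustment, with 3 unadjusted. Of all probe sets, 0.158% were called higher and 0.572% lower in MLN against MMN. The 0 calls among 26 list genes lie near those shares. In MLN against ILN 6 list genes rose and 6 fell, beside 12.0% and 11.5% of all probe sets. In MMN against ILN 7 rose and 1 fell, beside 9.97% and 8.86%. Lists are described here by these counts and medians alone. In the annotation used, 59 of the 101 listed genes had no probe set of their own. Another 13 had no matching name, most of them with such a probe set. Of these, AT5G54660 is described as a member and the others were left out. Most listed genes were therefore not examined.

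**Figure D3:**
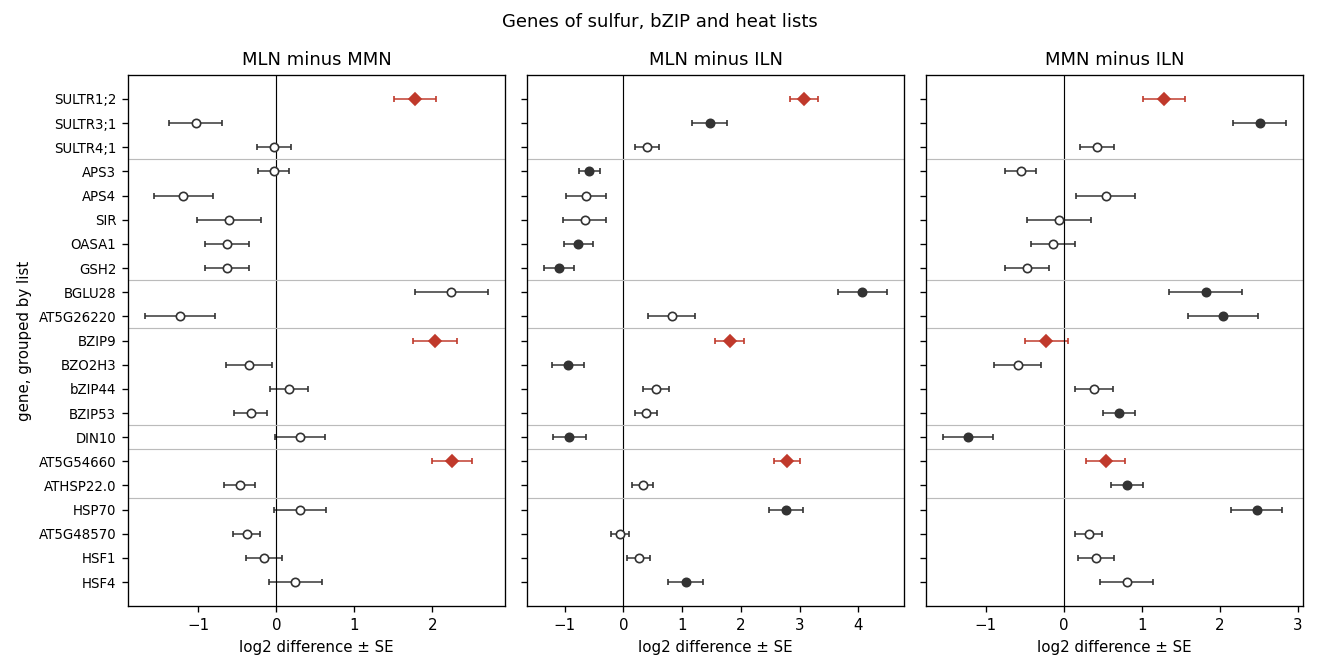
Log2 difference ± 1 standard error for MLN minus MMN, MLN minus ILN and MMN minus ILN in genes of the sulfur, bZIP and heat lists, with lines between lists. Red diamonds are SULTR1;2, BZIP9 and AT5G54660, filled circles are other genes with a limma adjusted p under 0.05 and open circles the remainder, and in MLN minus MMN no circle is filled although BGLU28 lies at 2.24.

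The 2 nearest measured genes on either side of each member were examined for the same bias, in the gene order of the TAIR10.1 assembly. Up to 5 protein-coding genes lay between a member and such a gene (UCL1 and AT1G65810). The adjoining SULTR2;2 (AST56), AT5G24790, Fh5, ATK3 and RK2 had no probe set of their own. None of the examined neighbours was called in MLN against MMN, where 0.158% of all probe sets were called higher and 0.572% lower. Next to BZIP9, AT5G24810 averaged 988 ± 49 in MLN, 1175 ± 37.2 in MMN and 590.1 ± 131 in ILN (SD, n = 3, 2 and 3), with a log2 difference of -0.25 for MLN minus MMN. It rose against ILN by 0.77 in MLN and by 1.02 in MMN (limma adjusted p = 0.0136 and 0.00653), an order of types unlike that of BZIP9, and its probe set carries the same suffix. AT5G24820 also rose against ILN, by 0.62 in MLN and by 0.91 in MMN (limma adjusted p = 0.0168 and 0.00503), and AT5G24750 fell in MLN against ILN by 0.79 (limma adjusted p = 0.0199). Near AT5G54660, ILR3, a basic helix-loop-helix factor of iron homeostasis, had signals of 3513, 4038 and 4611 in MLN, 2146 and 2322 in MMN, and 2245, 2058 and 1685 in ILN. Its MLN arrays lay above all others, with log2 differences of 0.85 (standard error 0.2, limma adjusted p = 0.112) for MLN minus MMN and 1.02 (standard error 0.18, limma adjusted p = 0.00209) for MLN minus ILN. Beside SULTR1;2, AT1G78010 fell in MMN against ILN by 0.77 (limma adjusted p = 0.033), and AT1G78020 averaged 2004 in MLN, 1137 in MMN and 1723 in ILN without passing a test. Of these neighbour calls, that of ILR3 held whichever array was left out, and the others were lost on leaving out at least 1 MMN or ILN array. The gene that follows AT1G65810, AT1G65820, averaged 4161 in MLN, 3791 in MMN and 3343 in ILN and passed no test.

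**Figure D4:**
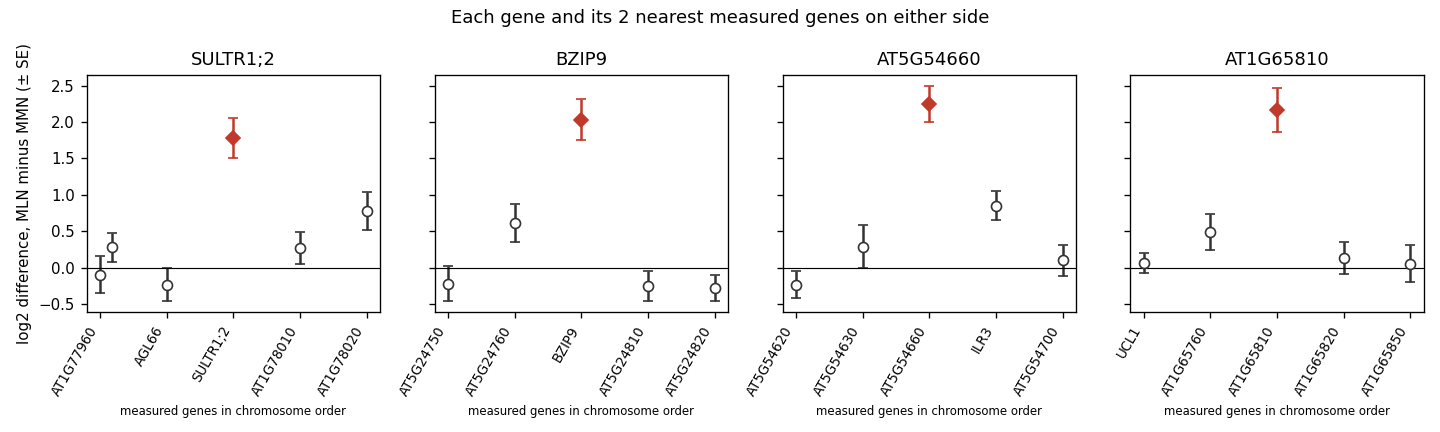
Log2 difference ± 1 standard error, MLN minus MMN, of each gene (red diamond) and of the 2 nearest measured genes on either side in chromosome order (open circles). AT1G77960 has 2 probe sets drawn side by side, and no neighbour reaches the difference of its red diamond, the highest neighbour values being ILR3 at 0.85 beside AT5G54660 at 2.25 and AT1G78020 at 0.78 beside SULTR1;2 at 1.78.

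The probe sets most like each member were sought by Pearson's r of log2 signals over the 8 arrays, among 7616 single-locus probe sets with a mean of at least 100 in some nectary type. The 3 groups dominate such coefficients, so these are descriptions. For SULTR1;2 they were AT3G57950 (r = 0.994), AT3G19000 (0.989), TET16 (0.981), AHL1 (0.979) and AT4G25280 (0.977), and all 5 had every MLN array above both MMN arrays and these above every ILN array. AHL1, an AT-hook DNA-binding protein gene, averaged 425 in MLN, 142 in MMN and 48.2 in ILN. For BZIP9 they were ATPC1 (0.983), AT3G14780 (0.971), AT1G55915 (0.963), AT2G45120 (0.929) and AT5G40980 (0.925). ATPC1, the gamma subunit of the chloroplast ATP synthase, had the shape of BZIP9 in small, with log2 differences of 0.28 for MLN minus MMN, 0.27 for MLN minus ILN and -0.016 for MMN minus ILN. A high r therefore says nothing of the size of a difference.

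For AT5G54660 the nearest were MYB7 (0.98), POL (0.979), AT1G68730 (0.976), AT3G11690 (0.965) and AT3G19000 (0.958), the last shared with SULTR1;2. MYB7 had signals of 1366, 913 and 967 in MLN, 197 and 207 in MMN, and 123, 252 and 179 in ILN. For AT1G65810 they were AT5G38300 (0.99), CYP98A3 (0.972), AtLEA4-1 (0.962), BGLU28 (0.96) and AT2G20920 (0.958). CYP98A3, a hydroxylase of phenylpropanoid synthesis, averaged 618 in MLN, 273 in MMN and 197 in ILN. The low signal of AT1G65810 in MLN 2 was met in all 5, since MLN 2 was the lowest MLN array for each.

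Markers of other tissues were examined beside the members. Of the nectary genes, CRC averaged 11747 in MLN, 14925 in MMN and 10456 in ILN, SWEET9 15311, 14201 and 13787, and cwINV4 12178, 11331 and 12020.5 in the same order, and none of these passed a test. JMT is described above, PIN6 passed no test, and SHP2, a floral identity gene, averaged 7771 in MLN, 6906 in MMN and 3159 in ILN, higher than in ILN in MLN and in MMN (limma adjusted p = 7.58e-04 and 0.00471), the last not without MMN 1 (limma adjusted p = 0.0761). For other tissues, 1 of 9 tapetum, 2 of 8 pollen, 1 of 9 vascular and 1 of 8 green tissue markers were examined. The tapetum gene A9 had a probe set of its own but was left out, since its name was not matched. The tapetum gene AMS and the pollen genes ANX1 and ANX2 were between 16.5 and 25.9 in mean signal in every type, near the low end of the arrays. None of the 5 examined markers was called in MLN against MMN, with log2 differences from -0.14 for RCA to 0.25 for AMS. Against ILN, MLN was higher for the vascular gene IRX3 (65.3 in MLN, 40.2 in ILN, limma adjusted p = 0.0482), for ANX2 (23.5 in MLN, 17.8 in ILN, limma adjusted p = 0.038) and for the green tissue gene RCA (5647 in MLN, 3283 in ILN, limma adjusted p = 0.0327). RCA was also higher in MMN (6172 in MMN, 3283 in ILN, log2 difference 0.96, limma adjusted p = 0.0307). The part of such tissue in the members' differences between stages was not tested, and no listed phloem marker had a probe set of its own here. The calls of ANX2, IRX3 and RCA in MLN were each lost on leaving out 6 of the 8 arrays in turn, and that of RCA in MMN on leaving out 3. In these pools, fewer cells of a type and less RNA per cell cannot be told apart. The 3′/5′ ratio of control transcripts was computed for 6 pairs of control probe sets. On the first ubiquitin pair it was 2.08 to 2.39 in MLN, 2.21 to 2.3 in MMN and 2.65 to 3.6 in ILN, so ILN lay above both mature types. On the first actin pair it was 7.08 to 8.09 in MLN, 8.28 to 8.66 in MMN and 8 to 13.9 in ILN, so MMN lay above MLN without overlap. On the other 4 pairs MLN overlapped MMN and ILN. The part of these ratios in the members' differences was not tested.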

How the data were processed

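RNA from 3 MLN, 2 MMN and 3 ILN pools was hybridised to 8 Affymetrix ATH1 arrays after 1 round of amplification. The deposited signal intensity values were made by the authors by quantile normalization and RMA together with public reference arrays in Genedata Expressionist, then scaled to a median of 100 per array. The sources used here state no software version. Such summarization pulls arrays toward one distribution, and how much background it left in low signals could not be examined here. Signals spanned 8.3 to 23364, and precision is limited by the small number of arrays.

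Signals were transformed to log2, 64 control probe sets were left out, and limma 3.58.1 (R 4.3.3) was fitted to the remaining 22746 over all 8 arrays, with 1 mean per nectary type and a variance trend. Benjamini-Hochberg adjustment of p ran over all probe sets of a comparison, a call being an adjusted p under 0.05. Folds are ratios of geometric means. Probe sets took a gene name only if the platform annotation and the additional files of the paper together gave exactly 1 locus. These were 14217, with 559 on several loci, 7896 on none and 74 on a gene outside the reference table. SULTR1;2 and BZIP9 are named through the additional files and AT1G65810 through the platform annotation, and AT5G54660 through both. Symbols came from a TAIR10.1 table. Of 101 genes on 8 lists, 26 besides the members were examined. A listed gene was kept where a symbol or synonym matched. Otherwise it was left out, even with a probe set of its own, except for the member AT5G54660.

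The members and lists were chosen with earlier results of these data known. Genes named are the members, up to 4 called genes per list, close relatives, the 5 probe sets most correlated with each member, the 10 largest lateral calls and the 2 measured neighbours on each side. Where the whole of a short list is described, its other genes are named too.

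Deviations from the group means correlated for MLN and ILN arrays of equal replicate number at 0.338, 0.241 and 0.211, a hint that these numbers pair them. The main fit held no term for such a pairing, and among the alternatives only the replicate block did. MLN and MMN (0.0721 and -0.0201) and MMN and ILN (-0.027 and -0.071) gave no such hint. The check says little for MMN, since its 2 arrays deviate from their mean as mirror images. Replicates are stated to come from different plants. The alternatives comprised the t-test of the methods (linear signals), a signal minimum of 100, 32 added before log2, a new quantile normalization, no variance trend, array weights, only the 2 groups compared, a replicate block, and each array left out. The limma procedure was tested on simulated data. Figures were drawn with matplotlib 3.10.9 in Python 3.11.15.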

Additional observations from a re-analysis of the deposited data

How the results depend on the processing

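The 12 member differences kept their sign under all 16 alternatives, and 186 of 192 alternative values lay within 1 SD of the arrays. The others came with 32 added before log2, which by construction shrinks low signals: 1.92 (AT5G54660) and 1.70 (AT1G65810) for MLN minus MMN, 2.48 (SULTR1;2), 2.30 (AT5G54660) and 1.99 (AT1G65810) for MLN minus ILN, and 0.92 (SULTR1;2) for MMN minus ILN. Counts of calls moved more, and in the methods' t-test 0 calls of MLN against MMN were higher in MLN. The 166 calls of MLN against MMN became 1 in the methods' t-test after Benjamini-Hochberg adjustment, 575 with array weights and 41 (without MMN 2) to 308 (without ILN 1) on leaving out 1 array, and 84, 88, 106 and 98 without MLN 1, MLN 2, ILN 2 and MMN 1. The share of calls higher in MLN was 21.7%, against 31.8% with array weights, 5.10% without MMN 1 and 7.32% without MMN 2. The 5357 calls of MLN against ILN became 773 in the t-test and 3566 (without ILN 3) to 6786, and the 4284 of MMN against ILN became 346 and 1762 (without MMN 2) to 4991, with 2123 without MMN 1. The share higher in MMN was 52.9%, against 78.9% in the t-test. The cause was not tested.

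With the replicate block, MLN against MMN had 275 calls, 79 of them higher in MLN, and 1 list gene in place of 0, BGLU28, APS4 passed in MLN against ILN, and BZIP53 no longer passed in MMN against ILN. The block changed no other list call. BGLU28 was also the 1 list call in MLN against MMN with the signal minimum, array weights or only the 2 groups compared, and the range without 1 array was 0 to 1. The 12 list calls of MLN against ILN became 1 in the t-test and 6 to 13 without 1 array, and the 8 of MMN against ILN became 2 and 4 to 9. Of the 20, 3 passed under every alternative, SULTR3;1 in MMN against ILN and AT5G35970 against ILN in both mature types, and none changed direction while called. A background correction from probe signals could not be made from the summarized values.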
